A study of Rattus norvegicus with 18 samples.

Results

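Transcripts of 5 genes of muscle protein breakdown were followed in the hearts of 18 male Wistar rats given saline, doxorubicin, or doxorubicin with AICAR. The 5 genes are Fbxo32, Trim63, Foxo1, Sqstm1 and Becn1. They were chosen by name and found by their Ensembl identifiers (ENSRNOG00000006738, ENSRNOG00000016543, ENSRNOG00000013397, ENSRNOG00000003147 and ENSRNOG00000020513, in this order), as 5 of the 32545 genes of the deposited table. Doxorubicin is an anthracycline cancer drug that is toxic to the heart. Cells turn the nucleoside AICAR into an AMP mimic, which activates the energy sensor AMPK. The saline group (6 rats) received saline only. The DOX+saline group (6 rats) received doxorubicin intravenously at 3 mg/kg per week, as 5 weekly injections, with subcutaneous saline. The DOX+AICAR group (6 rats) received the same doxorubicin with subcutaneous AICAR at 0.5 g/kg. Each rat gave 1 library of polyadenylated RNA from frozen heart. The sources used here do not give the animals' age, the part of the heart taken or the AICAR schedule, and the groups include none with AICAR alone.

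Striated muscle removes protein through the ubiquitin-proteasome system and through autophagy. Fbxo32 (atrogin-1, also called MAFbx) and Trim63 (MuRF1) encode muscle-restricted ubiquitin ligases, named atrogenes because skeletal muscle induces both during wasting. FOXO transcription factors, among them the product of Foxo1, switch on both ligase genes when insulin and Akt signalling is low, since Akt keeps FOXO proteins out of the nucleus. In the heart the ligases also act in the turnover of sarcomere and signalling proteins. Sqstm1 encodes p62, a receptor that carries ubiquitinated cargo into autophagosomes, and Becn1 encodes beclin-1, a subunit of the lipid kinase complex that starts autophagosome formation. An mRNA level does not report ligase activity, FOXO location or autophagic flux.

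RefSeq promoter sequences (assembly GRCr8) were matched by symbol for 3 of the 5 genes, Trim63, Foxo1 and Sqstm1, and not for Fbxo32 and Becn1. That of Trim63 is shown for its textbook FOXO element, and the other two to set beside it. Each is the 250 bases before the annotated start, 5′ to 3′ on the gene's strand. Capitals mark exact matches, on either strand, to the FOXO element TTGTTTAC, the TATA box TATAAA, the antioxidant response core TGACNNNGC (bound by NRF2) or the E-box CACGTG (bound by TFEB and other basic helix-loop-helix factors).
Trim63, chr5:151816986-151817235, plus strand: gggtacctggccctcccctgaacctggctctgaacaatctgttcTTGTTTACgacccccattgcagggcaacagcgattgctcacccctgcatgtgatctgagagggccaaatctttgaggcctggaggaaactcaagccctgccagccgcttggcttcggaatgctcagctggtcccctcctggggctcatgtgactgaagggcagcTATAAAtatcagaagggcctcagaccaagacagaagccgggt
Foxo1, chr2:138462724-138462973, plus strand: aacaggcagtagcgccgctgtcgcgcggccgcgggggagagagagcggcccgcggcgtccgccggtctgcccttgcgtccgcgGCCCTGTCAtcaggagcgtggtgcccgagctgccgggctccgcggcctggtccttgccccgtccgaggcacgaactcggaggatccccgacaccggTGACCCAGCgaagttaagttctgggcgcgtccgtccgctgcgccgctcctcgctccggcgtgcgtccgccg
Sqstm1, chr10:35037751-35038000, minus strand: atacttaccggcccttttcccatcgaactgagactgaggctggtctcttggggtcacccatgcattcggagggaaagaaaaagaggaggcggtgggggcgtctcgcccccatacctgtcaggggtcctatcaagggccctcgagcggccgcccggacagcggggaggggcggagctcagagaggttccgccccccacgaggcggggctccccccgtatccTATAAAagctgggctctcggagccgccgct

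The Trim63 window held the FOXO element 206 to 199 bases before the start and a TATA box 42 to 37 bases before it. Of the 33469 promoters of this length in the table, 0.947% held TTGTTTAC and 12.9% held TATAAA. The Foxo1 window was GC-rich (74.4% G or C, against a median of 51.2% over all promoters) and held the antioxidant response core at 2 places, 167 to 159 and 71 to 63 bases before the start, a core present in 10.1% of promoters. The Sqstm1 window held a TATA box 30 to 25 bases before the start. CACGTG, present in 5.59% of promoters, was not among the letters of these 3 windows. A match is a description of letters and not a binding site.

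All 5 genes were well measured. Libraries held 20.57 to 31.32 M reads (M, 1000000), recovered from the TPM values (transcripts per M: reads per gene length, with the same total in every library), and single values rested on 781 reads (Foxo1 in DOX+saline animal 4) to 15554 reads (Sqstm1 in DOX+saline animal 5). TPM is a level per gene length, so levels of different genes can be set side by side only as far as the lengths used hold. The recovered lengths were 3179 bp for Fbxo32 and 1896 bp for Trim63. By reads alone Fbxo32 was above Trim63 in every saline animal, as in animal 51 (5617 against 4065). It was below Trim63 in some animals of both doxorubicin groups, as in DOX+saline animal 3 (3224 against 4438) and DOX+AICAR animal 7 (4662 against 4839). By TPM the order Sqstm1, Trim63, Fbxo32, Becn1, Foxo1, from high to low, held in 18 of 18 libraries. Sqstm1 ranked 278 to 450 among all genes of a library and Foxo1 3500 to 6256. The coefficient of variation between animals was larger in DOX+saline than in saline for Fbxo32 (22.7% against 6.80%), Trim63 (18.1% against 4.78%) and Foxo1 (23.9% against 6.01%). It was closer for Sqstm1 (9.30% against 6.62%) and Becn1 (3.15% against 2.64%), and none of these differences was tested. In DOX+AICAR it was 8.13% for Fbxo32, 12.7% for Trim63, 9.30% for Foxo1, 9.88% for Sqstm1 and 6.70% for Becn1. The coefficient was not computed over all genes, so the wider spread is not a result about these genes. Read counting alone would give 0.864% (Sqstm1) to 2.72% (Foxo1) in DOX+saline.

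**Figure D1:**
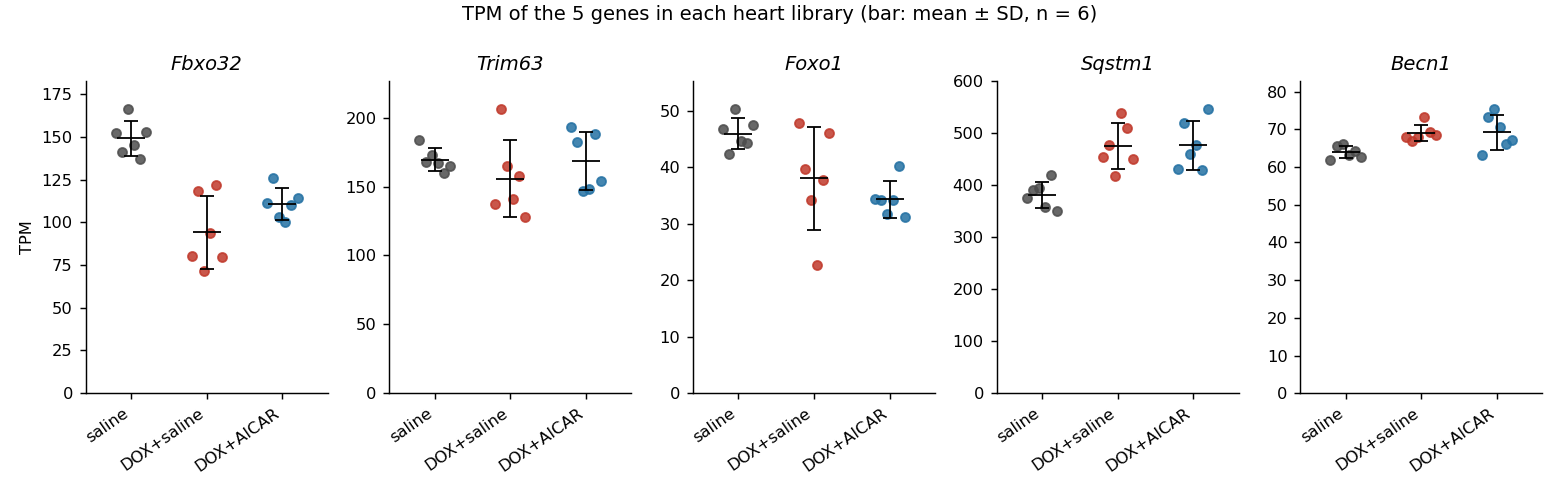
TPM (vertical axis, from 0) of each gene in each library by group, 1 point per animal, with the mean and SD of 6 animals as bars. Fbxo32 was lower in every animal given doxorubicin than in any saline animal, Sqstm1 was mostly higher, and Trim63 overlapped in all groups.

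Of the 5 genes, 4 changed in DOX+saline against saline (limma, adjusted p below 0.05 over all 14732 genes tested), where 58.0% of all genes were called. Fbxo32 and Foxo1 were lower (20.0% of all genes were), and Sqstm1 and Becn1 were higher (38.0% of all genes were). Against so high a background, 4 of 5 is not a result about these genes. The median log2 change was -0.14 over the 5 genes and 0.10 over all genes tested. All 5 passed the filter on low values. In DOX+AICAR against saline 2 were again lower and 2 higher, where 53.3% of all genes were called (18.4% lower and 34.8% higher), with medians of -0.02 and 0.09. The split of all genes by direction depended on the scaling. DOX+saline had 5595 higher and 2943 lower calls in the fit used here. Scaling by median-of-ratios factors gave 4312 and 4101, and quantile normalization 3424 and 4919. For DOX+AICAR these counts were 5133 and 2717, 3933 and 3939, and 3207 and 4703. Both comparisons use the saline libraries. In bulk heart RNA, fewer cells of a type and less RNA per cell cannot be told apart.

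Fbxo32, the atrogin-1 ligase gene, showed the largest change of the 5 in DOX+saline against saline. Saline animals had 137 to 166 TPM with a median of 148, a mean of 149 ± 10.1 TPM (SD, n = 6). DOX+saline animals had 71.4 (animal 3) to 122 TPM (animal 5) with a median of 87.0, a mean of 94.2 ± 21.3 TPM. DOX+AICAR animals had 100 (animal 10) to 126 TPM (animal 8) with a median of 111, a mean of 111 ± 9.01 TPM. Every animal given doxorubicin lay below every saline animal. Of all genes tested, 11.2% showed this without AICAR and 11.6% with it. The mean fell by 36.8% in DOX+saline, a log2 change of -0.68 (SE 0.11, 95% interval -0.91 to -0.45, limma adjusted p = 4.63e-05). Among all genes tested, 2.89% had a lower log2 change. In DOX+AICAR the mean fell by 25.7% against saline (log2 change -0.43, SE 0.11; adjusted p = 0.00327, limma). Both falls were called in 27 of 27 alternatives, which gave -0.78 to -0.58 and -0.52 to -0.40.

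Trim63, the MuRF1 ligase gene, did not pass the test. Saline animals had 160 to 184 TPM with a median of 168 (mean 170 ± 8.11, SD, n = 6), and DOX+saline animals 128 (animal 6) to 206 TPM (animal 2) with a median of 150 (mean 156 ± 28.2). DOX+AICAR animals had 147 to 193 TPM with a median of 168 (mean 169 ± 21.4). The groups overlapped, and the DOX+saline animals spread to both sides of the saline range: of the 6 DOX+saline animals 4 were below it, 1 inside and 1 above. The log2 change was -0.14 in DOX+saline (95% interval -0.35 to 0.07, limma adjusted p = 0.238) and -0.02 in DOX+AICAR (95% interval -0.22 to 0.19, limma adjusted p = 0.906). Without DOX+saline animal 2 the first became a called fall of 0.22 on the log2 scale (limma adjusted p = 0.0255), and with weights per library it was -0.24 (limma adjusted p = 0.0125). These were the only calls in 27 alternatives. Other animals moved it towards 0: it was -0.10 without DOX+saline animal 1 and -0.09 without animal 6. Without both, a setting chosen after seeing the data, it was -0.03 (limma adjusted p = 0.817). The interval also depended on the scaling. Median-of-ratios factors gave -0.24 in DOX+saline (95% interval -0.46 to -0.01, limma adjusted p = 0.0646), not called. Quantile normalization gave -0.18 (95% interval -0.39 to 0.04, limma adjusted p = 0.146). In DOX+AICAR these scalings gave -0.11 and -0.06 (limma adjusted p = 0.399 and 0.651).

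How the 2 ligase genes stood to each other within a library does not depend on a scaling factor per library. Quantile normalization is not such a factor and was not applied to the ratios. The ratio of Trim63 to Fbxo32 TPM was 1.04 to 1.21 in saline animals (mean 1.14 ± 0.07, SD, n = 6), 1.30 to 2.31 in DOX+saline animals (mean 1.69 ± 0.34) and 1.35 to 1.74 in DOX+AICAR animals (mean 1.52 ± 0.16). Neither doxorubicin group overlapped saline, which was already so for Fbxo32 alone. How many pairs of genes would separate in this way was not computed, so the separation is not a result about this pair. The highest ratio, in DOX+saline animal 3, belonged to the animal with the lowest Fbxo32. These ratios are given as a description, with no test.

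**Figure D2:**
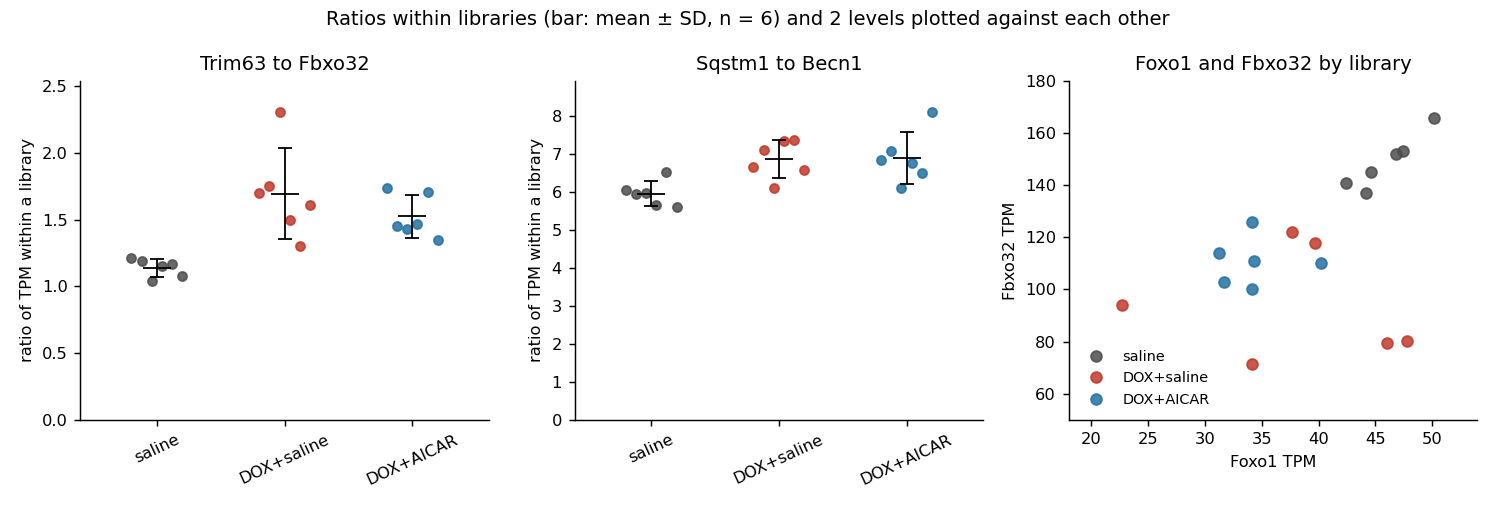
Left and middle: ratio of TPM of 2 genes within each library (vertical axes, from 0), 1 point per animal, with the mean and SD of 6 animals as bars. Right: Fbxo32 TPM against Foxo1 TPM. The relation in saline animals did not pass after adjustment (Pearson r = 0.93 on log2(TPM + 1), exact permutation adjusted p = 0.125). DOX+saline animals 1 and 6 had saline-like Foxo1 (47.8 and 46.0 TPM) with low Fbxo32 (80.1 and 79.5 TPM). A difference in correlation between groups was not tested.

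Foxo1, which encodes a transcription factor that drives both ligase genes, was lower in both doxorubicin groups, narrowly past the threshold without AICAR. Saline animals had 42.4 to 50.2 TPM with a median of 45.7 (mean 45.9 ± 2.76, SD, n = 6). DOX+saline animals had 22.7 (animal 4) to 47.8 TPM (animal 1) with a median of 38.7 (mean 38.0 ± 9.08), and animals 1 and 6 lay inside the saline range. DOX+AICAR animals had 31.2 to 40.2 TPM with a median of 34.1 (mean 34.3 ± 3.18), all below the saline animals, as in 11.6% of all genes. In DOX+saline the log2 change was -0.30 (SE 0.13, 95% interval -0.57 to -0.04), at the edge of the threshold (limma adjusted p = 0.0495). This call was lost in 15 of the 18 fits that left out 1 animal (limma adjusted p 0.0172 to 0.0921 over all 18), and held only without DOX+saline animal 1, DOX+saline animal 6 or DOX+AICAR animal 11. Fits without 1 DOX+AICAR animal left the log2 change at -0.30. Only the shared spread and the adjustment moved in them (limma adjusted p 0.0488 to 0.0574). Over all 27 alternatives the call in DOX+saline held in 8. Among these were median-of-ratios factors (log2 change -0.40, limma adjusted p = 0.0102) and quantile normalization (-0.37, limma adjusted p = 0.015). Voom on recovered reads also kept it (-0.30, limma adjusted p = 0.0422). Without DOX+saline animal 4 the log2 change was -0.17 (limma adjusted p = 0.0892), with weights per library it was -0.14 (limma adjusted p = 0.273), and without animals 1 and 6 together, a setting chosen after seeing the data, it was -0.47 (limma adjusted p = 0.0037). In DOX+AICAR the mean fell by 25.4% against saline (log2 change -0.42, SE 0.13, adjusted p = 0.0105, limma), and this was called in 27 of 27 alternatives (-0.51 to -0.39). In that comparison Foxo1 and Fbxo32 fell by similar amounts (log2 changes of -0.42 and -0.43, and -0.49 and -0.46 with quantile normalization).

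Whether Foxo1 and its textbook target genes varied together was asked within each group of 6 animals, for 3 gene pairs and so 9 relations on log2(TPM + 1). None passed after adjustment (lowest adjusted p = 0.125), and 1 had an exact permutation p below 0.05 before it. In saline animals Foxo1 and Fbxo32 gave a Pearson r of 0.93 (exact permutation p = 0.0139 over all pairings, two-sided, adjusted p = 0.125) and a Spearman rho of 0.94 (exact permutation p = 0.0167, adjusted p = 0.15). Without the 2 animals farthest from the median of Foxo1, r was 0.92. In DOX+saline the same pair gave r = -0.11 and rho = -0.09 (exact permutation p = 0.806 and 0.919), and in DOX+AICAR r = 0.05 and rho = -0.26 (exact permutation p = 0.894 and 0.658). Without the 2 farthest animals r became 0.04 in DOX+saline and 0.41 in DOX+AICAR. Foxo1 with Trim63 gave r of 0.40 (saline), -0.05 (DOX+saline) and 0.64 (DOX+AICAR), with exact permutation p of 0.464, 0.769 and 0.158. Their rho was 0.31, -0.43 and 0.66, and r without the 2 farthest animals 0.52, -0.49 and 0.62. Whether these correlations differ between groups was not tested. Fbxo32 with Trim63 gave r of 0.52 (saline), 0.55 (DOX+saline) and 0.59 (DOX+AICAR) (exact permutation p = 0.325, 0.292 and 0.25), and rho of 0.49, 0.31 and 0.49. Its value in DOX+saline rested on 2 animals and was -0.48 without them.

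Sqstm1, the p62 cargo receptor gene, rose in both doxorubicin groups. Saline animals had 351 to 420 TPM with a median of 382 (mean 382 ± 25.3, SD, n = 6), and DOX+saline animals 417 (animal 3) to 539 TPM (animal 4) with a median of 465 (mean 475 ± 44.2). DOX+AICAR animals had 429 to 546 TPM with a median of 469 (mean 478 ± 47.2), all above the saline animals (as in 22.9% of all genes), and 1 DOX+saline animal lay in the saline range. The mean was 24.4% higher with doxorubicin alone (log2 change 0.31, SE 0.07, 95% interval 0.17 to 0.46, limma adjusted p = 0.000898) and 25.2% higher with AICAR added (log2 change 0.32, adjusted p = 0.000822, limma). Both rises were called in 27 of 27 alternatives (0.21 to 0.35 and 0.22 to 0.35). In DOX+saline 70.2% of all genes had a lower log2 change, so the rise was of a common size. The RefSeq table also lists a Sqstm1 pseudogene, and whether reads were shared with it cannot be seen from these values.

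Becn1, the beclin-1 gene, differed between groups by little more than the median gene. Saline animals had 61.9 to 66.1 TPM with a median of 63.7 (mean 64.0 ± 1.69, SD, n = 6), and DOX+saline animals 67.0 to 73.2 TPM with a median of 68.3 (mean 69.0 ± 2.18), with no overlap, as in 21.1% of all genes in this direction. DOX+AICAR animals had 63.1 to 75.3 TPM with a median of 68.9 (mean 69.3 ± 4.64), and 2 of them lay in the saline range. Against saline, DOX+saline differed by 0.11 on the log2 scale (SE 0.04, adjusted p = 0.0286, limma), beside a median of 0.10 over all genes, and 50.5% of all genes had a lower change. With median-of-ratios factors, which moved that median to 0.01, the change of Becn1 was 0.01 (limma adjusted p = 0.833), and with quantile normalization 0.06 (limma adjusted p = 0.181). In DOX+AICAR it was 0.11 (limma adjusted p = 0.0272) and with these scalings 0.02 and 0.05 (limma adjusted p = 0.736 and 0.26). The call in DOX+saline was also lost without DOX+saline animal 4 (limma adjusted p = 0.0664) or saline animal 51, 54 or 56 (0.0594, 0.0502 and 0.0546). The call in DOX+AICAR was lost without DOX+AICAR animal 8, 9 or 10 (limma adjusted p = 0.067, 0.0742 and 0.0536) or saline animal 51 or 56 (0.0566 and 0.0526).

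Within libraries, Sqstm1 was 5.61 to 6.54 times the TPM of Becn1 in saline animals (mean 5.96 ± 0.33, SD, n = 6), 6.12 to 7.38 times in DOX+saline animals (mean 6.87 ± 0.50) and 6.12 to 8.12 times in DOX+AICAR animals (mean 6.91 ± 0.68). The groups overlapped in the plot of these ratios, and no test was made.

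**Figure D3:**
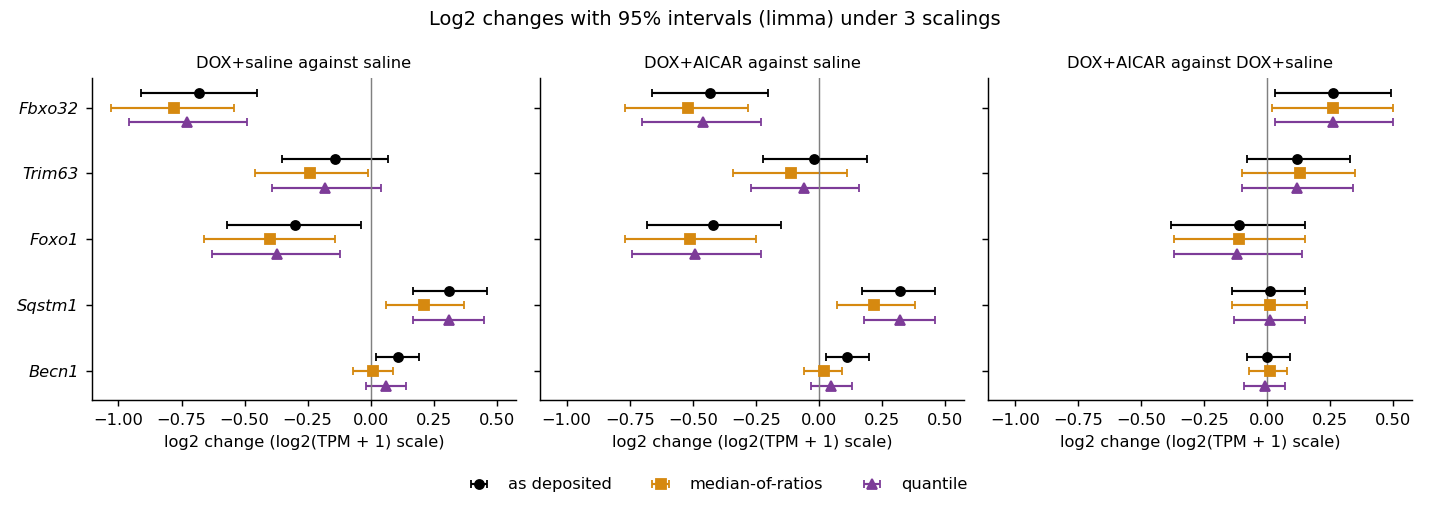
Log2 change of each gene in the 3 comparisons (horizontal axis, log2(TPM + 1) scale), with 95% intervals from limma, on the values as deposited and with 2 other scalings. Fbxo32 and Foxo1 lie left of 0 and Sqstm1 right of 0 against saline under each scaling, while the intervals of Becn1 reach 0 with both other scalings.

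DOX+AICAR against DOX+saline asked what AICAR added, and 0 of the 5 genes passed the test (limma), where 1.33% of all genes did. At an unadjusted p below 0.05 there was 1 gene, Fbxo32, and voom on recovered reads also called 0. The number of calls over all genes was itself unstable: 196 in this fit, 36 when animal 10 of DOX+AICAR was left out and 461 when animal 2 of DOX+saline was, moving by over 1.5 times in 14 of 18 such fits, and 16 with only the 12 libraries compared. The mean of Fbxo32 was 17.6% higher with AICAR (log2 change 0.26, SE 0.11, 95% interval 0.03 to 0.49, limma adjusted p = 0.233, before adjustment 0.0309), and 5 of 6 DOX+AICAR animals lay inside the DOX+saline range. The change was above 0 in 27 of 27 alternatives (0.15 to 0.36, limma adjusted p 0.0263 to 0.489) and was called with weights per library only, where 7.18% of all genes were called. Fits without 1 saline animal, without the filter or with only the 12 libraries compared could not move the log2 change, and gave 0.26. Without DOX+saline animals 1 and 6 it was 0.15. Trim63 differed by 0.12 (95% interval -0.08 to 0.33, limma adjusted p = 0.549) and Foxo1 by -0.11 (95% interval -0.38 to 0.15, limma adjusted p = 0.69). Single animals moved both, with no call: Trim63 was 0.21 without DOX+saline animal 2 and 0.07 without animal 6, and Foxo1 was -0.25 without DOX+saline animal 4 and -0.04 without animal 1. Sqstm1 differed by 0.01 (95% interval -0.14 to 0.15) and Becn1 by 0.00 (95% interval -0.08 to 0.09), with limma adjusted p of 0.969 and 0.98. Intervals of this width leave room for modest differences in the ligase genes and Foxo1, and less in Becn1.

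**Figure D4:**
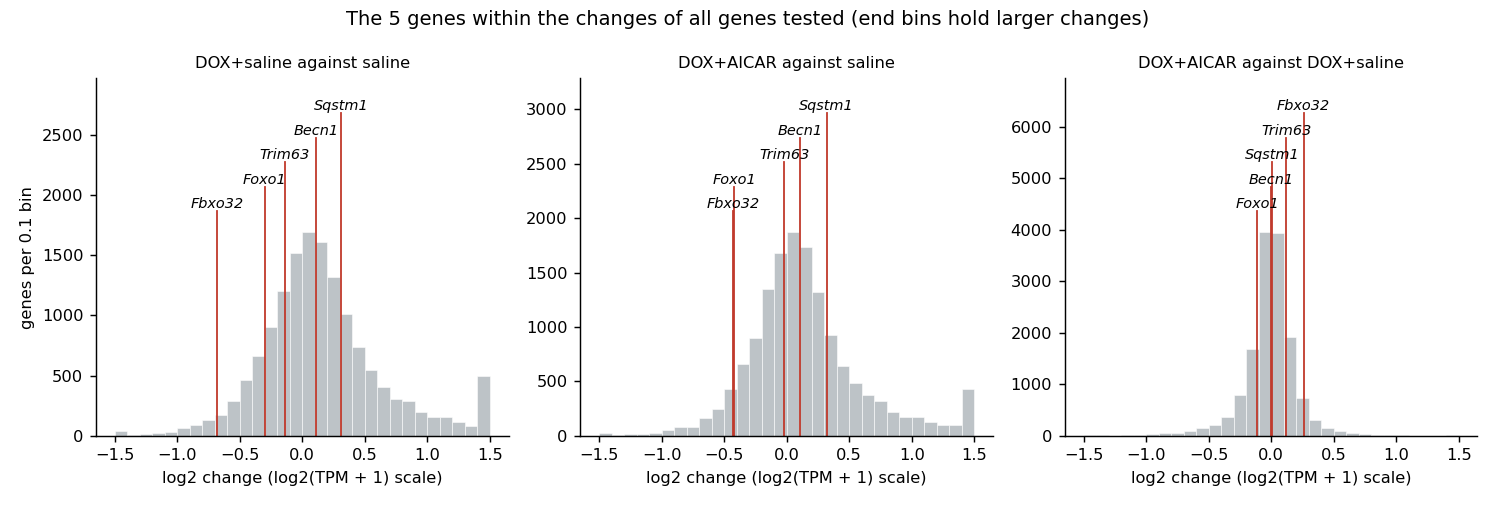
Number of genes per bin of log2 change (bars, 14732 genes tested, end bins hold larger changes) in the 3 comparisons, with the 5 genes as red lines whose height carries no value. Fbxo32 lies in the lower tail of DOX+saline against saline and Becn1 at its middle.

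The genes most like Fbxo32 and Foxo1 were sought by Pearson r between deviations from the group means of log2(TPM + 1) over the 18 libraries, among 14731 other genes. They are named by identifier only, since the deposited table pairs none with a symbol. ENSRNOG00000003334 was most like Fbxo32 (r = 0.89). It averaged 111 ± 5.23 TPM with saline, 72.7 ± 11.4 with doxorubicin and 78.8 ± 5.92 with doxorubicin and AICAR (SD, n = 6), and fell after doxorubicin alone (log2 change -0.62, SE 0.08, adjusted p = 4.21e-06, limma). ENSRNOG00000012473 was most like Foxo1 (r = 0.89), but its group means went the other way, from 24.4 ± 0.992 TPM in saline to 33.4 ± 4.99 after doxorubicin alone (log2 change 0.43, SE 0.09, adjusted p = 0.00052, limma). In both searches the next gene had an r of 0.88, so neither stands alone.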

How the data were processed

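The authors deposited 1 table of TPM values, whose total is 1000000 for every one of the 18 libraries. The tools named by the submitters' processing notes are bcl2fastq 2.17.1.14, HISAT2 (genome build Rnor_6.0) and featureCounts of Subread 1.5.0, while annotation release and strand setting are not given in the sources used. With a fixed total, a change of TPM is one of share. Gene symbols of the 5 members came with the choice of members. The RefSeq gene table used (GRCr8, 47357 genes) gave no Ensembl identifiers, so 0 of the 32545 identifiers could be matched to a symbol. Lists of other autophagy, FOXO and ubiquitin genes and of heart cell type markers were therefore not analysed here, and the heart label was not checked against markers.

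Reads were taken as the smallest whole numbers that fit the ratios between libraries, within 0.001 reads. Such numbers were found for all 25878 genes above 0, of which 20828 were above 0 in 6 or more libraries. For a gene above 0 in 1 library they are always found, so there this is no check of the reads. The lengths that the reads imply were whole numbers (tolerance 0.05 bp) in 100% of the 12726 genes checked. The 14732 genes reaching 1 TPM in 6 or more libraries were tested with limma 3.58.1 (R 4.3.3) on log2(TPM + 1), with 3 group means, a mean-variance trend and two-sided Benjamini-Hochberg adjusted p-values. The scripts were tested on simulated data. The labels number the animals 1 to 6 (DOX+saline), 7 to 12 (DOX+AICAR) and 51 to 56 (saline), so no numbers are shared between groups. Whether the saline animals were treated and processed alongside the others is not stated in the labels. The members, lists and tests were chosen with earlier results of these data known. Named genes are the 5 members and, for Fbxo32 and Foxo1, the gene with the most similar deviations.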

Additional observations from a re-analysis of the deposited data

Results flagged for a closer look

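DOX+AICAR animal 11 had 40.2 TPM of Foxo1, far from the 31.2 to 34.3 TPM of the other animals of its group. It stood out by its distance to the nearest other animal relative to the whole range of the group (Dixon criterion), which singled out 1 of the 21 groups of 6 values tested, where chance singles out about 1 group in 20.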

How the results depend on the processing

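Over 27 alternatives, 347 of 405 recomputed log2 changes of single genes kept their direction and side of the threshold, 34 lost a call, 3 gained one and 21 changed sign, all of these uncalled. Leaving out an animal of the group not compared cannot move a log2 change, only its SE and adjusted p. Not every alternative therefore tests the direction of a change. With 1 animal left out, the number of the 5 genes called was 2 to 4 in DOX+saline against saline. The 2 was reached without DOX+saline animal 4 or saline animal 51, 54 or 56, which each end the calls of Foxo1 and Becn1. In DOX+AICAR against DOX+saline weights per library called 1 gene, Fbxo32, and 1058 of 14732 genes in all. Changes near 0 turned sign. With 1 animal left out, Trim63 in DOX+AICAR against saline ranged from -0.06 to 0.02, and against DOX+saline Sqstm1 ranged from -0.03 to 0.04 and Becn1 from -0.02 to 0.03. In that comparison Sqstm1 was -0.01 and Becn1 -0.02 with voom on recovered reads, and Becn1 was -0.01 with quantile normalization. Without DOX+saline animals 1 and 6, Foxo1 was 0.05, Sqstm1 -0.02 and Becn1 0.00. The correlation of Fbxo32 and Trim63 in DOX+saline became -0.48, and that of Foxo1 and Fbxo32 0.04, without the 2 libraries farthest from the median. The Spearman rho of Foxo1 and Fbxo32 in DOX+AICAR was -0.26. Causes were not tested. The Foxo1 call in DOX+saline was also lost with a pseudocount of 0.1, without the filter, with weights per library and with only the 12 libraries compared (limma adjusted p = 0.0501, 0.0737, 0.273 and 0.0875). Its log2 change was -0.14 with weights per library and -0.31 to -0.30 in the other three. The same call held with median-of-ratios factors, quantile normalization, a pseudocount of 0.5 and voom (limma adjusted p = 0.0102, 0.015, 0.0497 and 0.0422). The Becn1 calls were also lost without DOX+saline animals 1 and 6 in DOX+saline (limma adjusted p = 0.0529) and with voom in DOX+AICAR (limma adjusted p = 0.0565). No paired analysis was possible because the groups share no animal numbers.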
